A study of Mus musculus with 22 samples.

Results

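Marker genes of Sertoli cells were followed through 2 chromatin marks in whole mouse testis. The genes were Sox9, Wt1, Gata4, Dmrt1, Amh, Inhbb, Fshr and Cldn11. Every 50 kb window that one of these 8 genes overlaps by its RefSeq position on mm10 (GRCm38) was taken, which gave 19 of the 54520 windows counted per library. Fshr covered 6 windows, Gata4 and Dmrt1 3 each, Wt1 and Cldn11 2 each, and Sox9, Amh and Inhbb 1 each. The windows were taken by position, and the genes were listed with earlier results of these data known.

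Sertoli cells are the somatic cells of the seminiferous tubule that surround the germ cells, feed them and seal them off by the blood-testis barrier. They descend from the supporting cells of the fetal gonad, in which Sox9 sets the testis fate, and they answer follicle-stimulating hormone. In the mature testis they are outnumbered by germ cells. Each value below is an average over all cells of the testis, so the part of the signal that comes from Sertoli cells and the part that comes from germ cells cannot be told apart.

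The study used chromatin immunoprecipitation and sequencing (ChIP-seq) on testes of mice that carry Robertsonian fusions on one chromosome set, a fusion being a pair of chromosomes joined at their centromeres. Its title asks how these fusions change where γH2AX and H3.3 lie in germ cells. γH2AX is histone H2AX phosphorylated at sites of DNA damage and on chromosomes that have not paired in meiosis. H3.3 is a histone H3 variant that is placed outside DNA replication, mainly at active genes and regulatory elements.

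γH2AX was measured at 4 weeks of age in 3Rb, 1Rb_M, 1Rb_P and B6. 3Rb is the F1 of B6.SPRET7MOLF12 and RBF/Dnj and carries 3 translocations, which by background knowledge of RBF/Dnj join chromosomes 1 with 3, 8 with 12 and 9 with 14. 1Rb_M is the F1 of CBy.RBF-Rb(8.12)5Bnr/J and B6.SPRET7MOLF12, and 1Rb_P is the F1 of C57BL/6J and CBy.RBF-Rb(8.12)5Bnr/J; both carry the translocation of 8 and 12 alone. B6 is C57BL/6J without a translocation. H3.3 was measured at 6 weeks in 3Rb, in 1Rb (the strain label of 1Rb_M) and in Cg, which is B6.SPRET7MOLF12 without a translocation. Each group had 3 libraries except B6, which had 1 and another supplier label for its antibody. The groups differ in parental strain as well as in translocations, and these cannot be told apart. Replicates are numbered, and the labels do not say that each was a separate animal, so p-values measure the spread between these libraries only.

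The γH2AX libraries of the carriers held 45527545 to 56385465 counts, the H3.3 libraries 41278440 to 128348440, and the B6 γH2AX library 21535147. A window of a Sertoli gene held 503 to 1469 counts in the carrier γH2AX libraries and 463 to 5606 in the H3.3 libraries, so counting error was at most 4.46% and 4.65%. In B6 it reached 6.84%. In γH2AX, replicates 1 and 2 of 1Rb_M stood apart from the other carriers, with 12.3% of counts on chromosome X against 17.7 to 18.9% in the other 7. Calls against 1Rb_M are given with and without both. No expression was measured, so the identity of the tissue was not checked against RNA of its markers.

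Levels are log2 ratios of a library to the 3 pooled inputs, set to 0 at the median window of the 13 autosomes that take part in no translocation. The inputs are titled 1Rb_M (4 weeks), Cg (6 weeks) and B6 (4 weeks). None is titled 3Rb, so levels in 3Rb are set against DNA of other strains. Pooled input at the 19 windows was close to the genome's median. Windows of like gene content are autosomal windows that overlap the same number of protein-coding genes. Windows of 50 kb do not separate promoters from gene bodies, and some hold other genes. The window with the start of Amh also holds Jsrp1, Lingo3, Oaz1 and Sf3a2, and that of Cldn11 also holds Skil. On mm10 the transcription factor genes span chr11:112782210-112787757 (Sox9), chr2:105126529-105173614 (Wt1), chr14:63198914-63271712 (Gata4) and chr19:25505618-25604328 (Dmrt1). Amh spans chr10:80805240-80807679, Inhbb chr1:119415463-119422248, Fshr chr17:88984952-89200675 and Cldn11 chr3:31149920-31164326. Only 81 bases of Cldn11 lie in its start window, and 14326 in the next.

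Of the 8 genes, 3 had a promoter in the RefSeq table of GRCm38.p6 (250 bases before the start to 50 after). These 3 are shown because the table holds no promoter of the other genes. They stand at different places in the H3.3 order given below. Capitals mark CpG dinucleotides. Cldn11 lies on the plus strand (chr3:31149670-31149969), Inhbb on the minus strand (chr1:119422199-119422498) and Fshr on the minus strand (chr17:89200626-89200925).
Cldn11: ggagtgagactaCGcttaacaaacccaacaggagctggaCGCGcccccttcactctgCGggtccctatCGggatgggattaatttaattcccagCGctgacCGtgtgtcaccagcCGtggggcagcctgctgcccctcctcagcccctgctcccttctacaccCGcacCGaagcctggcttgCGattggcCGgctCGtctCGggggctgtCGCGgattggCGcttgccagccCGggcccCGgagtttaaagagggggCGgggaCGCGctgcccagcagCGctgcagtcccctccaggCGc
Inhbb: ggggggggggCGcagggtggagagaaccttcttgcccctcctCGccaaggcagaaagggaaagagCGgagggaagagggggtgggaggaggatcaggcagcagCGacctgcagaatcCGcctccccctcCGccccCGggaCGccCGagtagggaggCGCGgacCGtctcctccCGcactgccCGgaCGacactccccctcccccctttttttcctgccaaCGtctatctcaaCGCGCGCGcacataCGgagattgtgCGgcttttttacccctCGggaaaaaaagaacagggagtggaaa
Fshr: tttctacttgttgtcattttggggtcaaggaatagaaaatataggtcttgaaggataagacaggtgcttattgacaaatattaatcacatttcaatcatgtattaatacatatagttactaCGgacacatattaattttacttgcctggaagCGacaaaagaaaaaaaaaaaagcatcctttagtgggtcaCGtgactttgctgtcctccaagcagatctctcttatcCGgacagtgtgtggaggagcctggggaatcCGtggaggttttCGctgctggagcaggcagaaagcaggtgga
The promoter of Cldn11 was 66.3% G or C with 24 CpG, more than 73.3% of the 17492 promoters in the table. That of Inhbb was 64.3% G or C with 23 CpG, more than 71.1% of promoters. That of Fshr was 40.7% G or C with 6 CpG, against a median of 13 over all promoters. Of 3 motifs searched on both strands, CACGTG (an E-box) occurred once in Fshr, 61 bases before the start, and is in 7.90% of promoters. CCAAT occurred 2 times in Cldn11 and is in 39.0% of promoters. GATAA, the core bound by GATA factors, occurred 2 times in Fshr and is in 22.97% of promoters. A match describes letters and not a bound site.

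Of the 8 genes, 7 carried H3.3 above the median autosomal window, and Fshr carried less. All 13 windows of Sox9, Wt1, Gata4, Dmrt1, Amh, Inhbb and Cldn11 stood above 0 in 9 of 9 H3.3 libraries, and all 6 windows of Fshr stood below 0 in 9 of 9. Amh was highest, at 2.08 times input relative to the median window (mean log2 1.05 ± 0.13, SD, n = 9). Fshr stood at 0.860 times in its start window (mean log2 −0.22 ± 0.07, SD, n = 9). The order of the start windows in 3Rb was Amh, Dmrt1, Cldn11, Wt1, Gata4, Inhbb, Sox9 and Fshr. In 1Rb it was Amh, Cldn11, Dmrt1, Gata4, Wt1, Sox9, Inhbb and Fshr, and in Cg Amh, Cldn11, Dmrt1, Wt1, Gata4, Sox9, Inhbb and Fshr. The libraries of Amh lay clear of the next gene, and those of Fshr clear of the gene before it, in all 3 groups. Between them, neighbours in the order overlapped except Wt1 and Gata4 in 3Rb and Cldn11 and Dmrt1 in Cg.

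**Figure D1:**
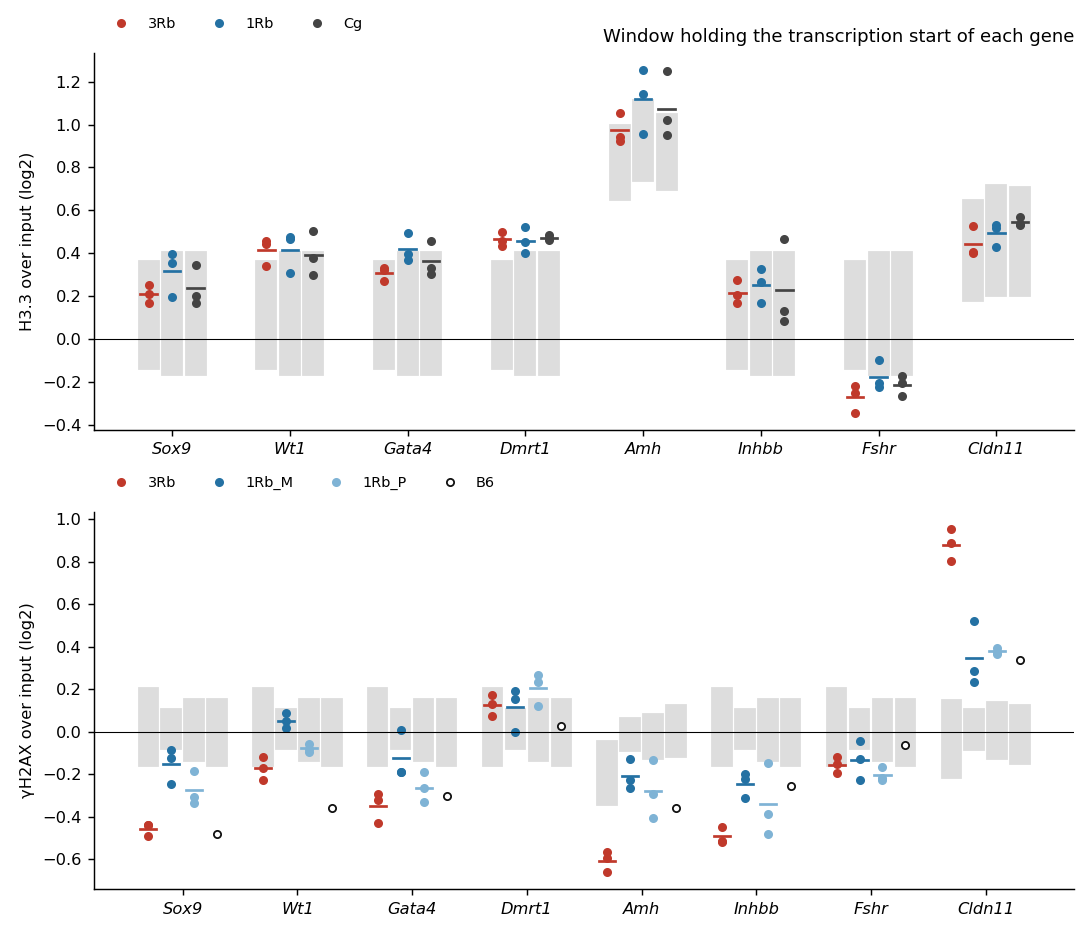
Levels of H3.3 (top) and γH2AX (bottom) over input, as log2 relative to the median autosomal window, for the window with the start of each gene. Points are libraries, short lines are means of 3, and grey boxes span the middle 50% of windows of like gene content. H3.3 sits highest at Amh and lowest at Fshr in every group, and γH2AX sits highest at Cldn11.

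Among the transcription factors, Dmrt1, a DM domain factor that keeps the male fate of Sertoli cells and also acts in spermatogonia, had the smallest spread of H3.3 between libraries among the start windows of these factors (SD 0.04, n = 9). The window with its start had log2 levels of 0.46, 0.50 and 0.44 in 3Rb, 0.40, 0.52 and 0.45 in 1Rb, and 0.49, 0.46 and 0.47 in Cg. The 3 groups overlapped. Its 3 windows lay between the 73.4 and 82.7 percentiles of windows of like gene content, and at most 4 of the 38 windows within 1 Mb exceeded any of them in 3Rb. Matched instead by the share of bases in genes, within 0.1, its start window lay at the 39.1 to 44.9 percentiles, and the other 2 lay at 70.7 to 89.7. The farthest, shared with its neighbour Dmrt3, had the highest level (0.70 ± 0.07, SD, n = 9).

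Wt1, a zinc finger factor that Sertoli cells need to keep their identity, had start window levels of 0.44, 0.46 and 0.34 in 3Rb, 0.31, 0.47 and 0.48 in 1Rb, and 0.50, 0.30 and 0.38 in Cg. H3.3 was lower in its second window, at 0.09 ± 0.05 (SD, n = 9). The start window of Wt1 lay at the 73.9 to 79.1 percentiles by gene number and at 52.0 to 58.0 by the share of bases in genes. Gata4, a zinc finger factor that acts on Amh and other gonadal genes, stood at 0.27, 0.33 and 0.32 in 3Rb, 0.40, 0.49 and 0.37 in 1Rb, and 0.46, 0.30 and 0.33 in Cg. In the start window of Gata4 all 3 libraries of 3Rb lay below those of 1Rb. Sox9, the HMG box factor that drives Sertoli differentiation, had 0.25, 0.17 and 0.21 in 3Rb, 0.20, 0.35 and 0.40 in 1Rb, and 0.35, 0.17 and 0.20 in Cg. These groups overlapped, and Sox9 lay at the 60.4 to 67.3 percentiles of windows with 1 gene.

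Of the secreted factors, Amh encodes anti-Müllerian hormone, which makes the Müllerian ducts regress. Its window had H3.3 levels of 1.05, 0.92 and 0.94 in 3Rb, 0.96, 1.14 and 1.25 in 1Rb, and 1.25, 0.95 and 1.02 in Cg. The groups overlapped. Of 220 windows with 5 genes, 71.4 to 78.6% lay below it, and of windows with a like share of bases in genes, 97.7 to 98.5%. Across the 1 Mb on either side the median was 0.92 in 3Rb, close to the 0.97 of the Amh window. Inhbb encodes the βB subunit of inhibin B and activins. It had 0.17, 0.21 and 0.28 in 3Rb, 0.17, 0.33 and 0.27 in 1Rb, and 0.47, 0.13 and 0.09 in Cg. Replicate 1 of Cg was the highest of the 9, and the other 2 of Cg were the lowest.

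Fshr, the receptor of follicle-stimulating hormone, had start window levels of −0.25, −0.34 and −0.22 in 3Rb, −0.22, −0.10 and −0.20 in 1Rb, and −0.26, −0.20 and −0.17 in Cg. The groups overlapped. The means of its 6 windows ran from −0.33 to −0.13, at the 5.06 to 29.6 percentiles of windows with 1 gene. Its start window holds only 675 bases of the gene, and among windows with a like share of bases in genes it lay at the 26.9 percentile in 3Rb, 60.4 in 1Rb and 54.5 in Cg. The other 5 windows lay at 4.31 to 25.9 by that match. Windows with 1 gene whose promoter held 5 or fewer CpG had a median H3.3 of −0.16 in Cg (n = 1650), those with 6 to 20 had 0.25 (n = 1612), and those with over 20 had 0.47 (n = 1890). With 6 CpG, at the lower edge of its class, Fshr stood at −0.21 in Cg, below the first quartile of that class, which was 0.03. That level lay between the quartiles of the class with 5 or fewer, −0.33 and 0.11. Inhbb, with 23 CpG, stood at 0.23 ± 0.21 in Cg (SD, n = 3). Its mean was also below the first quartile of its class, which was 0.27.

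Cldn11 encodes claudin 11, the tight junction protein of the blood-testis barrier. The window with its start and Skil had H3.3 levels of 0.53, 0.40 and 0.41 in 3Rb, 0.43, 0.53 and 0.52 in 1Rb, and 0.57, 0.54 and 0.53 in Cg. All 3 Cg libraries lay at or above the highest of 3Rb. It stood at the 49.5 to 56.9 percentiles of windows with 2 genes, although only 6 of 39 windows within 1 Mb exceeded it in 3Rb. The window with the body of Cldn11 was at 0.08 ± 0.08 (SD, n = 9).

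Set against windows of like gene content, the 19 windows together lay close to the middle in H3.3, and the 8 start windows higher. The median level of the 19 was 0.22 in 3Rb, 0.32 in 1Rb and 0.24 in Cg. Each window's difference from the median of its own like windows had a median of 0.01 in 3Rb, 0.02 in 1Rb and 0.06 in Cg. Of the 19, 10 in 3Rb, 10 in 1Rb and 11 in Cg lay above that median. Fshr supplies 6 of the 19. Over the 9 libraries the median difference was 0.16 with start windows only, against 0.04 with all 19. Like windows need not hold a gene start, and how start windows of other genes compare was not tested. Matched by bases in genes, the start window of Dmrt1 lay at the 39.1 to 44.9 percentiles. That of Gata4 lay at 49.0 to 56.4, of Wt1 at 52.0 to 58.0 and of Fshr at 26.9 to 60.4. Those of Cldn11, Inhbb, Sox9 and Amh lay at 61.6 to 68.6, 64.6 to 66.8, 69.3 to 75.8 and 97.7 to 98.5. The median of windows without a gene in Cg was −0.24, of windows with 1 gene 0.12 and of windows with 5 genes 0.92.

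**Figure D2:**
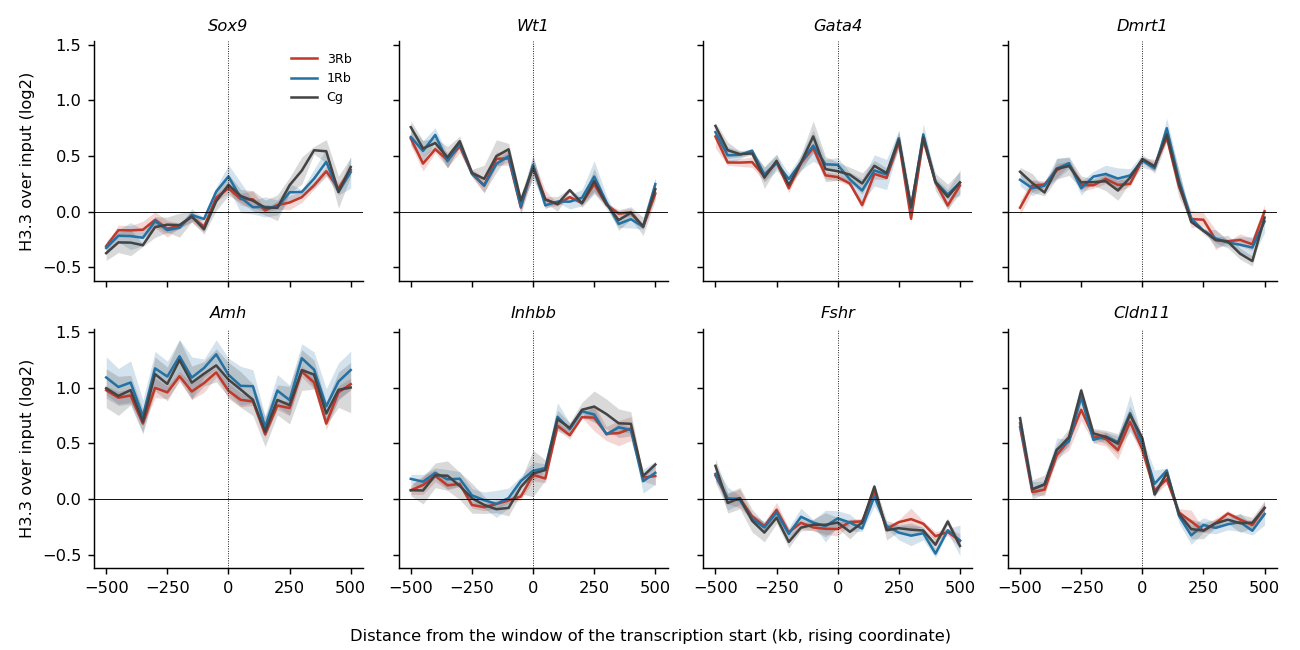
H3.3 over input (log2, vertical axis) in 50 kb windows by distance from the start window of each gene (horizontal axis, kb). Lines are means of 3 libraries and shading is ± SD; the 3 groups run together, Dmrt1 stands above its surroundings, Amh lies in a broad high stretch and Fshr in a low one.

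γH2AX spread the 8 genes apart in another order. In 3Rb the start windows ran Cldn11, Dmrt1, Fshr, Wt1, Gata4, Sox9, Inhbb and Amh from high to low. In 1Rb_M the order was Cldn11, Dmrt1, Wt1, Gata4, Fshr, Sox9, Amh and Inhbb, and in 1Rb_P Cldn11, Dmrt1, Wt1, Fshr, Gata4, Sox9, Amh and Inhbb. In B6 it was Cldn11, Dmrt1, Fshr, Inhbb, Gata4, Wt1, Amh and Sox9. Cldn11 was thus first and Dmrt1 second in all 4 groups. The libraries of Cldn11 lay clear of those of Dmrt1 in the 3 replicated ones. Those of Dmrt1 lay clear of the next gene in 3Rb and 1Rb_P, and overlapped those of Wt1 in 1Rb_M. Among the low genes the gaps were small: in 1Rb_M and 1Rb_P the libraries of Sox9, Amh and Inhbb overlapped. In 3Rb, Amh lay below Inhbb without overlap, while Sox9 and Inhbb overlapped.

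Inhbb, Amh, Sox9 and the start window of Gata4 had low γH2AX also for their gene number. The Inhbb window lay at the 2.33 to 3.86 percentiles of windows with 1 gene across the 3 carrier groups, Amh at the 3.64 to 5.45 percentiles of windows with 5 genes, and Sox9 at the 5.01 to 10.6 percentiles. The start window of Gata4 lay at the 8.55 to 15.9 percentiles. All of these were below 0 in 9 of 9 carrier libraries except the start window of Gata4, which was below 0 in 8 of 9. Matched by bases in genes, Inhbb lay at the 5.39 to 7.42 percentiles, Amh at 1.51 to 7.75 and Sox9 at 6.34 to 18.6. The start window of Gata4 then lay at 10.2 to 18.2. By gene number its middle window lay at 7.77 to 14.6, and the window shared with Fdft1 and Neil2 at 12.2 to 39.9. In B6, Sox9 was at the 1.45 percentile, Amh at 4.55, Wt1 at 5.34, Gata4 at 8.83 and Inhbb at 13.4. Matched by bases in genes, they were at 3.37, 4.69, 5.15, 9.39 and 21.2 in the same order. The start window of Fshr was below 0 in 9 of 9 carrier libraries, at the 13.9 to 25.9 percentiles, and in B6 at 41.5. That of Wt1 lay at the 23.9 to 62.3 percentiles in the carriers. Dmrt1, by contrast, lay at the 65.2 to 85.9 percentiles over its 3 windows in the carriers, and the start window of Cldn11 at 95.5 to 99.3.

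Over all 19 windows the median γH2AX level was −0.10 in 3Rb, 0.00 in 1Rb_M, −0.12 in 1Rb_P and −0.08 in B6. Each window's difference from its own like windows had a median of −0.12 in 3Rb, −0.00 in 1Rb_M, −0.13 in 1Rb_P and −0.07 in B6. B6 lay below all 9 carrier libraries at 3 of the 19 windows, the start window of Wt1, the middle window of Gata4 and the window shared by Dmrt1 and Dmrt3. It lay above all 9 at 1, the last window of Fshr. Of other autosomal windows 19.2% lay below and 15.1% above all 9. B6 has no replicate, and no test was made.

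**Figure D3:**
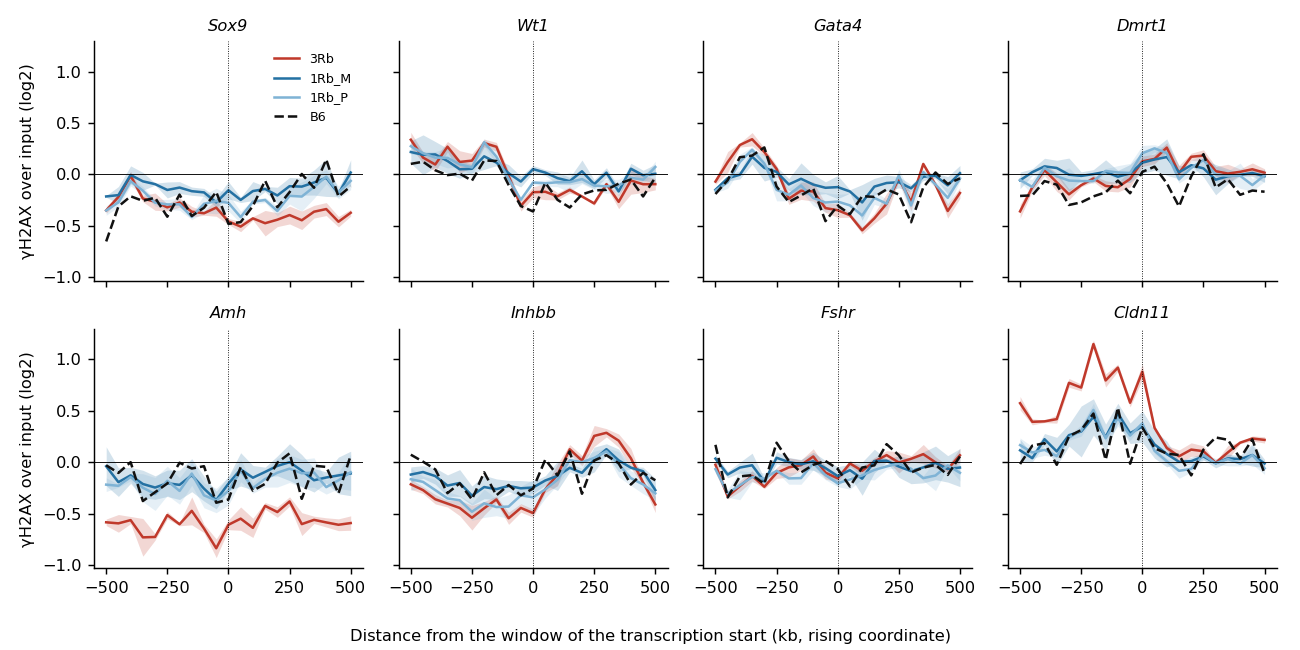
γH2AX over input (log2, vertical axis) in 50 kb windows by distance from the start window of each gene (horizontal axis, kb). Lines are means of 3 libraries with ± SD shaded, and the dashed line is the single B6 library; 3Rb lies below the other groups across the whole stretch around Amh and above them on the left of Cldn11.

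No difference in H3.3 between groups passed the test at any of the 19 windows. Each comparison used edgeR's quasi-likelihood test on the counts with Benjamini-Hochberg adjustment over all windows, and a call is an adjusted p under 0.05. For 3Rb against Cg, 0 of the 19 were called, beside 9.51% of all windows (3.34% higher and 6.16% lower). For 3Rb against 1Rb, 0 of the 19 were called, beside 6.1% of all windows (2.08% higher and 4.02% lower). For 1Rb against Cg, 0 of the 19 were called, beside 3.71% of all windows (1.08% higher and 2.62% lower). DESeq2 also called 0 in each, beside 7.5%, 5.67% and 2.67% of all windows in the same order. Without adjustment, p by edgeR was under 0.05 at 0 of the 19 for 3Rb against Cg, 1 for 3Rb against 1Rb and 0 for 1Rb against Cg. Over all 53117 windows it was under 0.05 at 12306, 8355 and 6864 in the same order. The smallest adjusted p values were 0.283, 0.308 and 0.444 in the same order of comparisons.

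The H3.3 intervals show how large a change could have gone unseen. Taken as 2 SE on either side, they lay within −0.24 to 0.20 for 3Rb minus Cg, −0.28 to 0.16 for 3Rb minus 1Rb and −0.22 to 0.22 for 1Rb minus Cg. At Cldn11 the difference of 3Rb minus Cg was −0.09 ± 0.05 (SE), and at Amh that of 3Rb minus 1Rb was −0.14 ± 0.07 (SE). Leaving out replicate 1 of H3.3 1Rb gave 1 call for 3Rb against 1Rb, beside 9.61% of all windows. In H3.3, replicate 1 of 1Rb and replicate 1 of Cg stood apart from the other libraries of their groups.

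γH2AX was lower in 3Rb than in 1Rb_M at most of the Sertoli genes and higher at Cldn11. Of the 19 windows, 8 were called lower and 1 higher, on 7 of the 8 genes; Dmrt1 had no call. Over all windows 38.1% were called, 20.2% lower and 17.9% higher. The median difference of the 19 was −0.07, against 0.01 over all windows. Without 1Rb_M replicates 1 and 2, which leaves 1 library there that is assumed to vary like the other groups, 6 windows were lower and 1 higher, beside 24.0% lower and 27.4% higher over all windows. The 2 calls lost were the start window of Gata4 and the end window of Fshr. The 6 lower differences were then −0.36 at Amh, −0.31 at Sox9, −0.27 at Inhbb, −0.24 and −0.20 at Wt1 and −0.21 in the middle window of Gata4. With scaling by library totals 9 were lower and 1 higher here, while over all windows 16177 were lower and 4492 higher, against 10710 and 9507 with the main scaling. That scaling moved the median of all windows to −0.09.

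**Figure D4:**
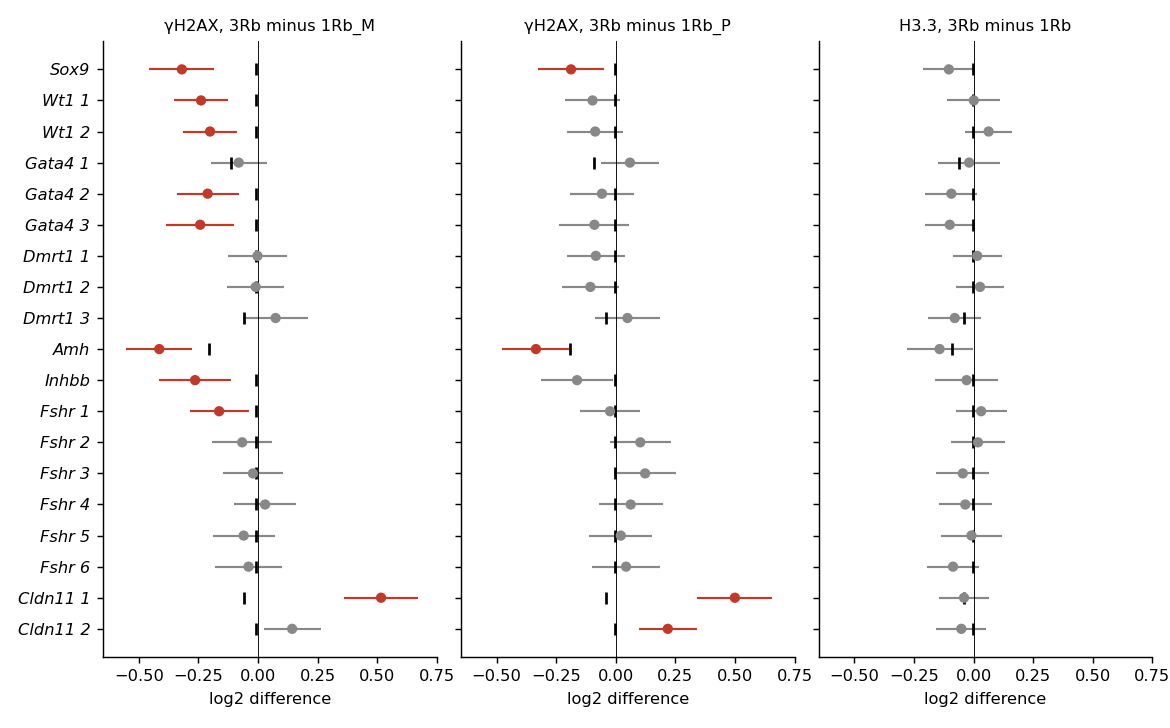
Log2 differences with intervals of 2 SE for the 19 windows, numbered along the chromosome, in γH2AX 3Rb minus 1Rb_M, γH2AX 3Rb minus 1Rb_P and H3.3 3Rb minus 1Rb. Red marks an adjusted p under 0.05 and the black tick is the median of windows of like gene content. Cldn11 lies to the right and Amh to the left in both γH2AX panels, and no H3.3 difference is red.

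The largest fall of the 19 in 3Rb was at Amh, and it kept its call against both 1Rb crosses in 16 of 16 alternatives. Its γH2AX levels were −0.59, −0.66 and −0.57 in 3Rb, against −0.13, −0.27 and −0.23 in 1Rb_M and −0.13, −0.29 and −0.40 in 1Rb_P, with −0.36 in B6. All 3Rb libraries lay below all others. Depth-scaled counts, as CPM, averaged 10.8 ± 0.381 in 3Rb and 14.4 ± 0.852 in 1Rb_M (SD, n = 3 each). The log2 difference was −0.41 ± 0.07 (SE, adjusted p = 2.06e-05) against 1Rb_M and −0.33 ± 0.07 (adjusted p = 0.00059) against 1Rb_P. These 2 comparisons share the 3Rb libraries. Its surroundings moved with it: 36 of 40 windows within 1 Mb were called lower in each comparison, with medians of −0.43 and −0.39. Windows with 5 genes had a median of −0.20 against 1Rb_M, and 8.64% of them lay below Amh.

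Sox9 was also lowest in 3Rb among the carriers. Its levels were −0.44, −0.44 and −0.49 in 3Rb, against −0.09, −0.25 and −0.13 in 1Rb_M and −0.34, −0.18 and −0.31 in 1Rb_P. The B6 level of −0.48 lay within those of 3Rb. The difference was −0.32 ± 0.07 (SE, adjusted p = 0.00044) against 1Rb_M, where 25 of 40 windows within 1 Mb were called lower. Against 1Rb_P it was −0.19 ± 0.07 (SE, adjusted p = 0.0495), a call that held in 6 of 16 alternatives, with adjusted p up to 0.177.

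Inhbb, on chromosome 1, had levels of −0.51, −0.45 and −0.52 in 3Rb, against −0.22, −0.31 and −0.20 in 1Rb_M and −0.15, −0.39 and −0.48 in 1Rb_P, with −0.25 in B6. 3Rb lay below 1Rb_M without overlap and overlapped 1Rb_P. The difference was −0.26 ± 0.07 (SE, adjusted p = 0.00587) against 1Rb_M and −0.16 ± 0.08 (SE, adjusted p = 0.126) against 1Rb_P.

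Wt1 and Gata4 were called lower in 3Rb against 1Rb_M and not against 1Rb_P, and no difference between 1Rb_M and 1Rb_P was called at them. Wt1 stood in its start window at −0.12, −0.23 and −0.17 in 3Rb, against 0.02, 0.05 and 0.09 in 1Rb_M and −0.06, −0.08 and −0.10 in 1Rb_P, with −0.36 in B6. 1Rb_M was the highest group and B6 the lowest library. The difference of 3Rb minus 1Rb_M was −0.24 ± 0.06 (SE, adjusted p = 0.00125) there and −0.20 ± 0.06 (adjusted p = 0.00588) in the second window. The median difference of windows within 1 Mb was −0.05. Against 1Rb_P the start window differed by −0.10 ± 0.06 (SE, adjusted p = 0.246).

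Gata4, which lies on chromosome 14, stood in its start window at −0.32, −0.30 and −0.43 in 3Rb, against 0.01, −0.19 and −0.19 in 1Rb_M and −0.27, −0.19 and −0.33 in 1Rb_P, with −0.30 in B6. Its difference of 3Rb minus 1Rb_M was −0.24 ± 0.07 (SE, adjusted p = 0.0084). Without 1Rb_M replicates 1 and 2 it was −0.14, with an adjusted p of 0.125, and without replicate 1 alone it was −0.17, with an adjusted p of 0.101. The middle window of Gata4 differed by −0.21 ± 0.06 (SE, adjusted p = 0.0107). That call was lost without 1Rb_M replicate 1 or 3Rb replicate 2, with adjusted p of 0.057 and 0.0594.

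At Fshr and Dmrt1, 1 of 9 windows was called in 3Rb against 1Rb_M and 0 against 1Rb_P, beside 38.1% and 22.9% of all windows. One end window of Fshr differed by −0.16 ± 0.06 (SE, adjusted p = 0.0368) in 3Rb minus 1Rb_M, and by −0.06 (adjusted p = 0.541) without 1Rb_M replicates 1 and 2. The call was also lost without replicate 1 or 2 of either group, with adjusted p of 0.0958 to 0.144, with DESeq2 (adjusted p = 0.124) and with a replicate block (adjusted p = 0.0562). The other 5 windows of Fshr and all 3 of Dmrt1 were not called in any γH2AX comparison, with differences against 1Rb_P of up to 0.12 at Fshr and down to −0.11 at Dmrt1. Dmrt1 stood at 0.07, 0.17 and 0.13 in 3Rb, against 0.15, −0.00 and 0.19 in 1Rb_M and 0.26, 0.23 and 0.12 in 1Rb_P, and the interval of its start window for 3Rb minus 1Rb_M was −0.12 to 0.12.

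A window at Cldn11 was the only one of the 19 called higher in 3Rb against 1Rb_M. It holds the start of Cldn11, 81 bases of the gene, and Skil, so its signal cannot be assigned to Cldn11. It stood at 0.80, 0.95 and 0.89 in 3Rb, against 0.24, 0.29 and 0.52 in 1Rb_M and 0.37, 0.38 and 0.39 in 1Rb_P, with 0.34 in B6. Every 3Rb library lay above every other. CPM averaged 26.95 ± 1.33 in 3Rb, 18.8 ± 1.61 in 1Rb_M and 19.1 ± 0.25 in 1Rb_P (SD, n = 3 each). The log2 difference was 0.52 ± 0.08 (SE, adjusted p = 5.45e-06) against 1Rb_M and 0.50 ± 0.08 (adjusted p = 1.36e-05) against 1Rb_P. Of windows with 2 genes, 98.8% and 98.7% lay below these differences. Without 1Rb_M replicates 1 and 2 the difference from 1Rb_M was 0.38.

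The next window, with nearly all of the gene body, had a smaller difference. It stood at 0.36, 0.33 and 0.31 in 3Rb, against 0.13, 0.07 and 0.33 in 1Rb_M and 0.11, 0.14 and 0.09 in 1Rb_P, with 0.14 in B6. Replicate 3 of 1Rb_M lay among the 3Rb libraries in these levels, and every 1Rb_P library lay below them. The difference was 0.22 ± 0.06 (SE, adjusted p = 0.00801) against 1Rb_P and 0.14 ± 0.06 (adjusted p = 0.057) against 1Rb_M. The call against 1Rb_P was lost with DESeq2 (adjusted p = 0.0639) and without 1Rb_P replicate 1 (adjusted p = 0.0505).

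Cldn11 lies on chromosome 3, which is fused in 3Rb and free in 1Rb. So are chromosomes 1 and 14, and windows of Inhbb and Gata4 on them were called lower in 3Rb than in 1Rb_M. How the levels of these genes relate to the fusions was not tested. The median γH2AX of 1 Mb bins was higher in 3Rb than in 1Rb_P from the first bin of the chromosome to 4.5 Mb after Cldn11. The median difference of 3Rb minus 1Rb_P was 0.39 in the bin centred 13.5 Mb before Cldn11, 0.29 at 0.5 Mb before it, 0.15 at 0.5 Mb after it and 0.00 at 5.5 Mb after it. Beyond that it was −0.11 at 6.5 Mb, −0.23 at 7.5 Mb and −0.02 at 8.5 Mb. At 7.5 Mb, 3Rb stood at −0.11 and 1Rb_P at 0.12. Farther along both signs occurred, with 0.11 at 16.5 Mb and −0.11 at 20.5 Mb. The median difference of 3Rb minus 1Rb_M was −0.04 at 3.5 Mb after Cldn11, 0.17 at 16.5 Mb and −0.19 at 20.5 Mb. Within 1 Mb, 22 of 39 windows were called higher against 1Rb_M and 29 of 39 against 1Rb_P, with 0 lower in both. The start window stood out from this stretch in every group: 2 of 39 windows within 1 Mb had more γH2AX in 3Rb, in 1Rb_M, in 1Rb_P and in B6. One lay at 200 kb before it, over Phc3, at 1.15 ± 0.04 in 3Rb, 0.44 ± 0.18 in 1Rb_M and 0.51 ± 0.06 in 1Rb_P (SD, n = 3 each), with 0.47 in B6. From 200 to 500 kb after it, levels in 3Rb lay between −0.00 and 0.23.

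**Figure D5:**
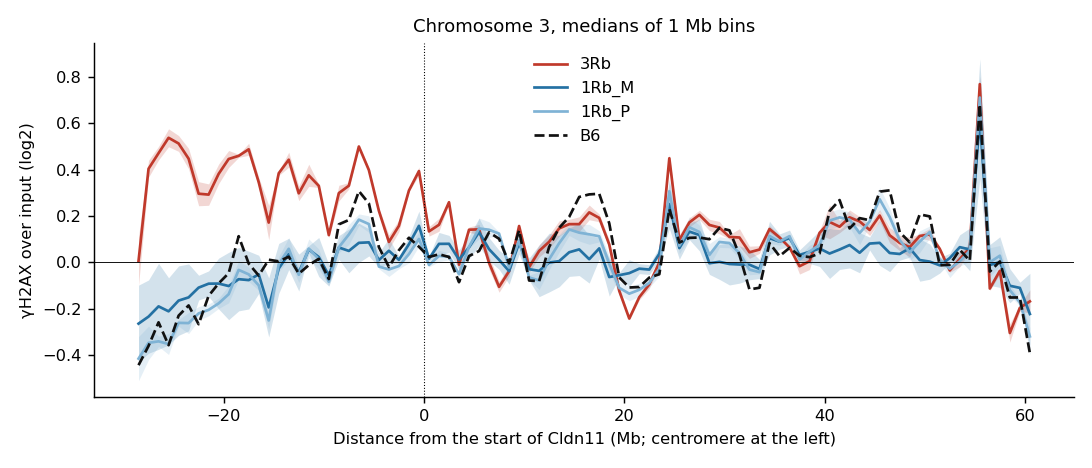
γH2AX over input (log2, vertical axis) along part of chromosome 3, as medians of 1 Mb bins by distance from the start of Cldn11 (horizontal axis, Mb). Lines are means of 3 libraries with ± SD shaded, and the dashed line is the single B6 library; 3Rb is above the other groups on the centromere side, and a few Mb beyond Cldn11 it lies at −0.11, under the other groups, at 7.5 Mb.

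In all, 3Rb against 1Rb_P gave 2 windows higher and 2 lower of 19, beside 22.9% called over all windows (10.1% higher and 12.8% lower). The median of the 19 was −0.02. The 4 were both windows of Cldn11, Amh and Sox9. DESeq2 called 2 of them, Amh and the start window of Cldn11, and without 1Rb_P replicate 1 there were also 2. These are beside 13.2% of all windows by DESeq2 and 15% without that library. There were 5 without 1Rb_M replicates 1 and 2, beside 37.2% of all windows.

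Between the 2 crosses with a single translocation, 1Rb_M and 1Rb_P, edgeR called 0 of 19 windows. This is beside 1.36% of all windows (0.299% higher and 1.06% lower). DESeq2 also called 0 of 19, beside 0.446% of all windows. Without adjustment, p by edgeR was under 0.05 at 7 of the 19, beside 10162 of all 53118 windows. The median difference of 1Rb_M minus 1Rb_P was 0.10, against 0.00 over all windows, and 15 of 19 were positive. Intervals reached from −0.22 to 0.30. Without 1Rb_M replicate 3 there were 4 calls, without its replicate 2 there was 1, and with replicates 1 and 2 left out there was 1, each higher in 1Rb_M. Over all windows 10%, 3.75% and 4.71% were higher and 15.3%, 6.92% and 11.4% lower in these fits.

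Whether the strain contrast differed between the marks was tested with an interaction term over 12 libraries, as γH2AX 3Rb minus 1Rb_M less H3.3 3Rb minus 1Rb. Of the 19 windows 1 was called higher and 2 lower, beside 13.4% of all windows (6.57% higher and 6.81% lower). Cldn11 had 0.56 ± 0.12 in its start window (SE, adjusted p = 0.00363), and kept the call in 19 of 19 alternatives. The value was 0.36 without 1Rb_M replicates 1 and 2 (adjusted p = 0.00216). The second window of Wt1 had −0.25 ± 0.07 (SE, adjusted p = 0.0198) and Inhbb −0.22 ± 0.07 (SE, adjusted p = 0.0472). They had −0.32 (adjusted p = 0.00181) and −0.30 (adjusted p = 0.00569) without 1Rb_M replicates 1 and 2. The count was 1 without γH2AX 3Rb replicate 1 or 3 and with DESeq2, 5 without 1Rb_M replicate 2 or without its replicates 1 and 2, 9 without its replicate 3 and 8 with library totals. Of all windows, 9.06% and 9.78% were called without 3Rb replicate 1 or 3 and 6.48% with DESeq2. It was 17.0% without 1Rb_M replicate 2, 23.9% without its replicates 1 and 2, 31.6% without its replicate 3 and 20.5% with library totals. The marks were taken at 4 and 6 weeks of age, which cannot be told apart from the mark.

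A longer list of 29 other Sertoli genes, with 38 autosomal windows tested was counted in the same way. For γH2AX in 3Rb against 1Rb_M, 15 were lower and 2 higher (median −0.10), beside 20.2% lower and 17.9% higher over all windows. Against 1Rb_P, 9 were lower and 1 higher (median −0.08), beside 12.8% lower and 10.1% higher. Together, 44.7% and 26.3% of the 38 were called, beside 38.1% and 22.9% of all windows. Between 1Rb_M and 1Rb_P 0 were called, beside 1.36% of all windows. Without 1Rb_M replicates 1 and 2, the median difference was −0.15 for 3Rb minus 1Rb_M and 0.07 for 1Rb_M minus 1Rb_P. Sox8, a relative of Sox9, had the smallest adjusted p: CPM averaged 11.3 in 3Rb, 15.3 in 1Rb_M and 15.03 in 1Rb_P, a difference of −0.43 ± 0.07 (SE, adjusted p = 9.47e-06) and −0.41 ± 0.07 (adjusted p = 4.25e-05). Ptgds, which encodes a prostaglandin D synthase, differed by −0.28 and −0.26. Inhba, the βA subunit beside the βB of Inhbb, was higher in 3Rb than in 1Rb_M, by 0.24 ± 0.05 (SE, adjusted p = 0.000731), and its interaction with the mark was 0.30 ± 0.06 (adjusted p = 0.00308). Tjp1, which encodes a tight junction scaffold, differed by −0.30 against 1Rb_M (adjusted p = 0.00135). Without 1Rb_M replicates 1 and 2, the differences from 1Rb_M were −0.55 at Sox8, −0.37 at Ptgds, 0.29 at Inhba and −0.10 at Tjp1, where the call was lost (adjusted p = 0.288). Against 1Rb_P, the ligand gene Dhh differed by −0.22 and Inha, the α subunit of inhibins, by −0.19. In H3.3, 0 of 38 were called in 3Rb or 1Rb against Cg, beside 9.51% and 3.71% of all windows. In 3Rb against 1Rb 1 of 38 was called, beside 6.1% of all windows. It was Krt18, at −0.17 ± 0.05 (SE, adjusted p = 0.0342).

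Genes of other cells were set beside them for γH2AX in 3Rb against 1Rb_M, where 20.2% of all windows were lower. Of autosomal windows tested, 4 of 10 were lower for Leydig cells, 5 of 8 for spermatids, 7 of 20 for spermatogonia, 8 of 9 for ovarian granulosa cells, 5 of 12 for housekeeping genes and 3 of 6 for liver genes. Of these lists, granulosa genes alone had a window called higher, 1. The lower counts without 1Rb_M replicates 1 and 2 were 6, 5, 10, 7, 7 and 3 in the same order, beside 24.0% of all windows, and liver genes had 1 higher. Against 1Rb_P, where 12.8% of all windows were lower, 4 of 10 were lower for Leydig cells, 3 of 8 for spermatids, 1 of 20 for spermatogonia, 6 of 9 for granulosa cells, 5 of 12 for housekeeping genes and 2 of 6 for liver genes, and 1 window each of the spermatid and liver genes was higher. The median level of H3.3 in Cg relative to windows of like gene content was 0.06 for the 8 Sertoli genes, 0.10 for the other Sertoli genes and 0.29 for housekeeping genes. For granulosa genes it was 0.27 and for spermatogonia 0.05. It was −0.16 for Leydig, −0.15 for spermatid and −0.25 for liver genes. None of these differences between lists was tested.

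For each of the 8 genes, the gene on another chromosome whose start window had the nearest set of 7 group means by Euclidean distance, among windows of equal gene number, was looked up. Wt1 was nearest to Foxd1 (distance 0.0913 on the log2 scale), Sox9 to Pdpn (0.0937), Inhbb to Itpripl2 (0.0959), Dmrt1 to Arhgef11 (0.0979) and Gata4 to Chst3 (0.0984). Fshr was nearest to Prol1 (0.13) and Amh to Pdxp (0.148). Cldn11 had the most distant partner, Cyp20a1 (0.23), where the median distance of its 5001 candidates was 1.33.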

How the data were processed

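The deposited files held raw counts of reads per 50 kb window, 1 table for each of the 22 libraries. The tools named are CASAVA 1.8 and BWA, and the build is mm10, per the submitters' processing notes. How duplicates and reads with several matches were treated is not given in the sources used here. Groups follow the titles, although 1 input, called 1Rb_M there, has the strain of 1Rb_P.

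Gene positions came from a RefSeq table of GRCm38.p6. That table holds no strand, so the strands of Sox9, Wt1, Gata4, Dmrt1 and Amh, which set their start windows, are background knowledge. The 8 genes and the other gene lists were chosen with earlier results of these data known.

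Levels were log2((count + 0.5)/(pooled input count + 0.5)), minus the median over autosomes 2, 4, 5, 6, 7, 10, 11, 13 and 15 to 19. Windows with pooled input over 5 or under 0.2 times the median (1503 windows) stayed out of like windows and of neighbours within 1 Mb. Counting errors cover counting alone.

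Tests used edgeR 4.0.16 (R 4.3.3) on counts: 9 libraries of a mark together, or 12 for the interaction, a mean count of 10 or more per window, TMM scaling, two-sided quasi-likelihood tests and Benjamini-Hochberg adjustment over all windows tested (53117 for H3.3, 53118 for γH2AX). The method was tested on simulated data. CPM values were scaled by edgeR. Alternatives were DESeq2 1.42.0 with a mean dispersion fit, other scalings and filters, a replicate block, single inputs, start windows only, the share of bases in genes as the measure of gene content, and each library left out. All 8 genes are named; of the other Sertoli genes, up to 4 per comparison with the smallest adjusted p in the start window are.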

Additional observations from a re-analysis of the deposited data

Results flagged for a closer look

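At 3 windows the contrast of 3Rb with the 1Rb_M cross differed between γH2AX and H3.3 by the interaction test (edgeR, adjusted over all windows). The start window of Cldn11 had an interaction of 0.56 on the log2 scale, from differences of 0.52 in γH2AX and −0.04 in H3.3. Without 1Rb_M replicates 1 and 2 it was 0.36. The second window of Wt1 had −0.25, from −0.20 in γH2AX and 0.06 in H3.3. Inhbb had −0.22, from −0.26 in γH2AX and −0.03 in H3.3. The call of Wt1 held in 15 of 19 alternatives and that of Inhbb in 9 of 19, with adjusted p up to 0.117 and 0.188.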

How the results depend on the processing

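No called window of the 19 reversed its direction under any alternative run. Over all windows the balance of higher and lower calls did turn in some. For 1Rb_M minus 1Rb_P, library totals as scaling gave 391 higher and 174 lower, against 159 and 565 with the main scaling. Repeats of the called single windows kept the call in 228 cases and lost it in 37; Amh and the start window of Cldn11 kept theirs in 16 of 16 for both γH2AX comparisons. DESeq2 gave 2 called windows for 3Rb against 1Rb_P (4 in edgeR) and 1 for the interaction (3 in edgeR). Over all windows DESeq2 called 3166 higher and 3870 lower for 3Rb against 1Rb_P (5369 and 6809 in edgeR), 22 and 215 for 1Rb_M against 1Rb_P (159 and 565) and 1954 and 1487 for the interaction (3492 and 3617). Library totals as scaling gave 8 interaction calls, beside 20.5% of all windows, with a median of −0.10 over all windows. With 1Rb_M replicates 1 and 2 both left out, an alternative chosen after seeing the data, 1Rb_M against 1Rb_P had 1 call and the interaction 5. Leaving out 1 library at a time gave 0 to 1 calls for H3.3 3Rb against 1Rb, beside 5.18 to 9.61% of all windows. For γH2AX 3Rb against 1Rb_M it gave 6 to 11, beside 28.1 to 46.2%. There were 6 without 1Rb_M replicate 1 (28.6%) and 11 without its replicate 3 (46.2%). For 3Rb against 1Rb_P it gave 2 to 5, beside 15 to 34.3%, with 2 without 1Rb_P replicate 1 (15%). Between 1Rb_M and 1Rb_P it gave 0 to 4, beside 0.256 to 25.3%. For the interaction it gave 1 to 9, beside 8.5 to 31.6%. There was 1 without γH2AX 3Rb replicate 1 (9.06%) or 3 (9.78%). There were 5 without 1Rb_M replicate 2 (17%) and 9 without its replicate 3 (31.6%). The median H3.3 level of the 19 windows over the 9 libraries, 0.27, was 0.17 with the B6 input alone, 0.10 with library totals and 0.38 with start windows only; its difference from like windows, 0.04, was 0.16 with start windows only. The γH2AX median of −0.07 was −0.40 with library totals and −0.19 with start windows only, and its difference from like windows, −0.08, was −0.19 with start windows only. Deviations of same-numbered libraries had correlations of −0.59 to 0.23 in H3.3 and −0.33 to 0.16 in γH2AX, each over 0.1 in 2 of 9 pairs. Differently numbered libraries had −0.31 to 0.44 in H3.3 and −0.24 to 0.43 in γH2AX, over 0.1 in 9 and 6 of 18 pairs. These values do not settle whether the numbers pair libraries. With a replicate block 8 windows were called for 3Rb against 1Rb_M, beside 35.9% of all windows. It gave 3 for 3Rb against 1Rb_P (20.8%), 3 for the interaction (13.8%) and 0 in the others (0.877 to 7.34%). The cause of these shifts was not tested. Depth limits B6 most, with counting errors of 5.18 to 6.84% at the 19 windows.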
